A study of Mus musculus with 8 samples.

Results

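The periocular mesenchyme transcription factors described here were the 8 genes Foxc1, Foxc2, Tfap2b, Twist1, Prrx1, Lmx1b, Meox2 and Tbx18, taken by their gene symbols out of 23420 named genes. They were compared between the limbus, the ring of tissue where cornea, conjunctiva and sclera meet, and the cornea inside that ring. The tissue came from 16 eyes of wild-type C57BL/6J mice aged 8 weeks. Limbal rims formed one pool and corneal buttons the other, so each tissue is a mixture of animals and of cell types. The labels number 4 samples per tissue, while the deposited table holds the values of 1 library per tissue. The spread between animals was therefore not measured, no test between tissues was possible, and the intervals given are exact 95% intervals that cover counting error only.

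During development the periocular mesenchyme, a mixture of neural crest and head mesoderm cells around the optic cup, gives rise to the corneal stroma and endothelium, the outflow tissue of the iridocorneal angle, the sclera and the coats of the ocular vessels. Its cells are defined less by a single factor than by a combination of transcription factors from several families, many of which persist at lower levels in the adult tissues. The members belong to 6 such families, the forkhead (Foxc1, Foxc2), AP-2 (Tfap2b), Twist (Twist1), paired-related and Meox homeodomain (Prrx1, Meox2), LIM homeodomain (Lmx1b) and T-box (Tbx18) proteins.

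Of the 8 members, 3 were at least 2-fold higher in the limbus beyond counting error (Foxc2, Prrx1 and Meox2) and 0 were so in the cornea. Across 13932 genes whose mean reached 10 normalized reads, 17.7% were called higher in the limbus and 8.75% higher in the cornea by the same rule. A normalized read is a read divided by the size factor of its library. Without the 2-fold limit, 5 members were higher in the limbus, namely those 3 with Tfap2b and Lmx1b, and Twist1 was the 1 higher in the cornea, beside 36.0% and 40.5% of all those genes. The median log2 ratio of limbus over cornea was 0.80 over the members and -0.037 over the 13932 genes, of which 47.8% were higher in the limbus. Both medians take a library with 3 reads or fewer as 3 reads. The 7 members whose mean reached 10 are among these 13932 genes, and Tbx18 lies below that limit.

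**Figure D1:**
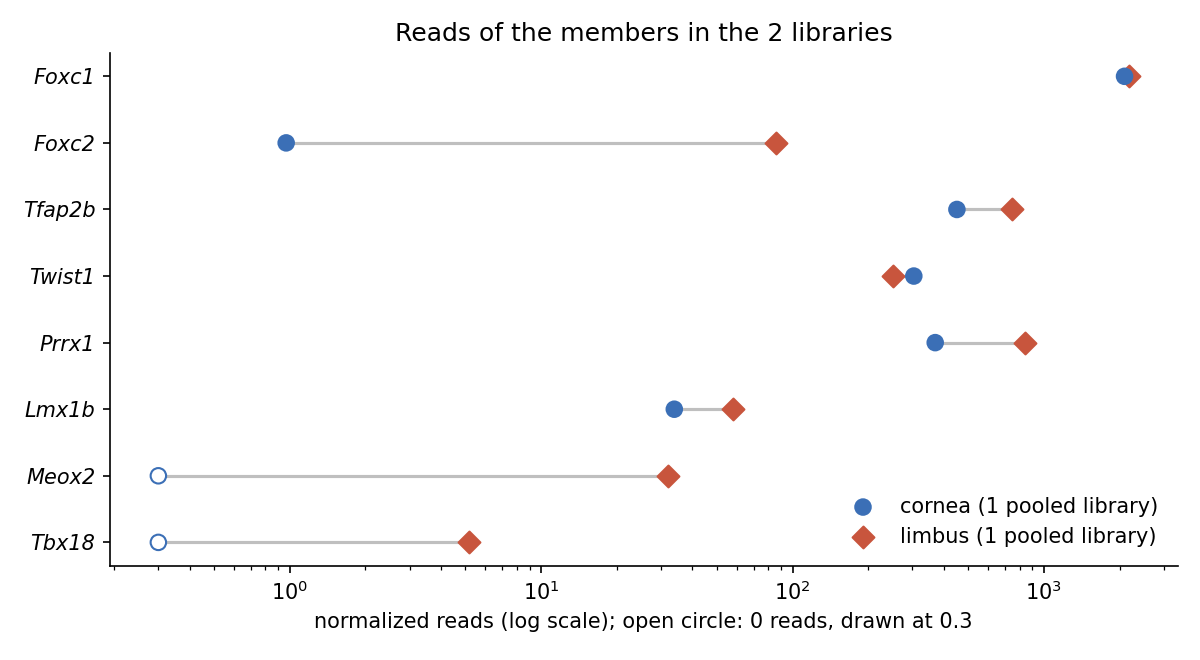
Normalized reads of the 8 factors (horizontal axis, log scale) in the corneal library (blue circles) and the limbal library (red diamonds), with a grey line joining both values of a gene. Foxc1 is the highest of the 8 in both tissues with nearly coinciding points, and the widest gaps are those of Foxc2, with 1 corneal and 83 limbal reads, and of Meox2, with 0 and 31 (open circles mark 0 reads).

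The forkhead genes are close copies, and their shared letters set how well short reads can tell them apart. Foxc1 has a single exon at chr13:31806633-31812476, plus strand, in the GRCm38 build. Foxc2 also has a single exon, at chr8:121116171-121118895, plus strand. The longest run of identical bases in their coding sequences has 53 bases, and 0 stretches of the 75-base read length were common to both. The windows printed here hold that run in capitals with 60 bases on either side, read from the GRCm38 genome. They lie in the part that encodes the forkhead domain, which binds DNA.
Foxc1, chr13:31807586-31807758, plus strand: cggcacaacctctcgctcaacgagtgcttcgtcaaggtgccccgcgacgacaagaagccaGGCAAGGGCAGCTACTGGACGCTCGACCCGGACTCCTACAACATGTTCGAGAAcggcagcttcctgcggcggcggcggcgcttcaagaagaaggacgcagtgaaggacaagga
Foxc2, chr8:121116972-121117144, plus strand: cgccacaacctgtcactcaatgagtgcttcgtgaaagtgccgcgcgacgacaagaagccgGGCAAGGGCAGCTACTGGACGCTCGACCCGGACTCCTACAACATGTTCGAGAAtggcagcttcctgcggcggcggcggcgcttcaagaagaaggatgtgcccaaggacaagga
Of the 173 positions in this pair of windows, 158 are identical and 15 differ. Stretches of read length were sought in whole transcripts, untranslated parts included, while the longest run was sought in coding sequence only. How the authors treated reads matching both genes is not given in the sources used here.

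Foxc1, the forkhead factor whose human counterpart is mutated in Axenfeld-Rieger anterior segment disease, had 2164 corneal and 2109 limbal reads. These correspond to 2093 and 2180 normalized reads. The log2 ratio of 0.059 (-0.029 to 0.15) did not differ from 0 beyond counting error, and at this depth a limbal excess of more than 1.11-fold lies outside the interval. Foxc1 alone took 64.4% of the 3362 reads that the 8 members had in the cornea and 51.9% of their 4062 reads in the limbus. When the libraries were scaled to their total reads instead, which moves every log2 ratio by 0.21 towards the limbus, Foxc1 had a log2 ratio of 0.26 with an interval of 0.18 to 0.35.

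Foxc2, which is best known for its part in the formation of lymphatic valves and in vessel walls, had 1 corneal read and 83 limbal reads. The limbal library was the high one, and its log2 ratio of 6.47 had a wide interval (3.95 to 11.79) because of the single corneal read. Taking 3 reads for the cornea, the fold is 29.6. As a share of the reads of both forkhead genes, which does not depend on the scaling of the libraries, Foxc2 took 0.0462% (1 of 2165 reads, exact interval 0.00117 to 0.257%) in the cornea and 3.79% (83 of 2192 reads, 3.03 to 4.67%) in the limbus. The members of the pair thus behaved differently, with 83 of the 84 Foxc2 reads in the limbal library. Foxc1 had a log2 ratio of 0.059, or 0.26 scaled to total reads. For 100 reads of Foxc1 there were 3.94 (3.12 to 4.90) of Foxc2 in the limbus.

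Tfap2b encodes an AP-2 factor of the neural crest that is needed for the corneal endothelium to form. It lies at chr1:19208914-19238576, plus strand. It had 466 corneal and 720 limbal reads, that is 451 and 744 normalized reads. The limbal level was 1.65-fold higher (1.47 to 1.86), a difference beyond counting error that did not reach 2-fold. Its nearest relative Tfap2a, an AP-2 factor of both neural crest and surface ectoderm, had 2027 corneal and 1072 limbal reads, with a log2 ratio of -0.82 (-0.93 to -0.72). Tfap2c, found in surface ectoderm, had 1071 and 660 reads, its log2 ratio being -0.60 (-0.74 to -0.46). Both relatives were thus lower in the limbus, opposite in direction to Tfap2b under each of the 3 scalings used. Tfap2e had 157 reads in each library, and Tfap2d was listed at 0. The share of Tfap2b among all AP-2 reads was 12.5% (11.5 to 13.6) in the cornea and 27.6% (25.9 to 29.4) in the limbus.

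Twist1, a basic helix-loop-helix factor of cranial mesenchyme, was the one member whose normalized reads were fewer in the limbal library. It lies at chr12:33957671-33959829, plus strand, and has 2 exons. It had 314 corneal and 243 limbal reads, or 304 and 251 normalized reads. The log2 ratio of -0.27 (-0.52 to -0.028) was beyond counting error by a narrow margin, and scaled to total reads it became -0.068 (-0.32 to 0.18), which includes 0. Its close relative Twist2, a factor of dermal mesenchyme, had 78 and 161 reads and was 2.21-fold higher in the limbus. The share of Twist1 among the reads of both was 80.1% (75.8 to 83.9) in the cornea and 60.1% (55.2 to 65.0) in the limbus. The windows printed next show how close these genes are, with their longest common run of 23 bases in capitals.
Twist1, chr12:33958350-33958432, plus strand: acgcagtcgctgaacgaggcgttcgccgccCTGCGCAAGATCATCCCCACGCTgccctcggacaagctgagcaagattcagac
Twist2, chr1:91801861-91801943, plus strand: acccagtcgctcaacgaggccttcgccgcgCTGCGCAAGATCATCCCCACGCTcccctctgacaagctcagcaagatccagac
In these windows 75 of 83 positions are identical. The longest common runs of the other pairs were 29 bases for Tfap2b with Tfap2a, 19 for Prrx1 with Prrx2, 12 for Meox2 with Meox1 and 23 for Tbx18 with Tbx15, and 0 stretches of read length were common to any pair.

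Prrx1, a paired-related homeodomain factor of limb, skull and facial mesenchyme, had the most limbal reads after Foxc1. It lies at chr1:163245119-163313710, minus strand. It had 382 corneal and 815 limbal reads, that is 370 and 843 normalized reads. The limbal level was 2.28-fold higher (2.02 to 2.58). Its relative Prrx2, also of limb and facial mesenchyme, had 37 and 168 reads and was 4.85-fold higher in the limbus. The share of Prrx1 among the reads of both genes was 91.2% (88.0 to 93.7) in the cornea and 82.9% (80.4 to 85.2) in the limbus. Both paired-related genes were therefore higher in the limbus, the one with fewer reads by more.

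Meox2, a homeodomain factor of somites, muscle precursors and vascular endothelium, had 0 corneal and 31 limbal reads. It has 3 exons at chr12:37108540-37179534, plus strand. Taking 3 corneal reads, the floor used here for a count of 0, it was at least 11.0-fold higher in the limbus, and the exact interval, which is wider, starts at 8.46-fold. Its relative Meox1, a somite factor that also marks activated fibroblasts, had 3 and 162 reads, a log2 ratio of 5.85 (4.28 to 8.14). Meox2 took 31 of the 193 Meox reads in the limbus (16.1%, 11.2 to 22.0), while the 3 corneal reads of the family are too few for a share.

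Lmx1b, a LIM homeodomain factor of limb, kidney and anterior eye whose human counterpart is mutated in nail-patella syndrome, was low in both tissues. It lies at chr2:33560965-33640511, minus strand. It had 35 corneal and 56 limbal reads, or 33.9 and 57.9 normalized reads. The limbus was 1.71-fold higher with a wide interval (1.10 to 2.69). Its relative Lmx1a, a factor of the inner ear and midbrain, was listed at 0, so Lmx1b supplied every read of the pair.

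Tbx18, a T-box factor of the epicardium and of pericytes, was at the edge of detection. It lies at chr9:87702800-87731260, minus strand. It had 0 corneal and 5 limbal reads, a difference not beyond counting error at this depth, since the lower end of the log2 interval was -0.030. Scaled to total reads that end was at 0.18, and with Tbx18 the members called for the limbus would number 4. Its relative Tbx15 had 2 and 21 reads, with a log2 ratio of 3.49 (1.46 to 6.63), and Tbx22 had 0 and 1.

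**Figure D2:**
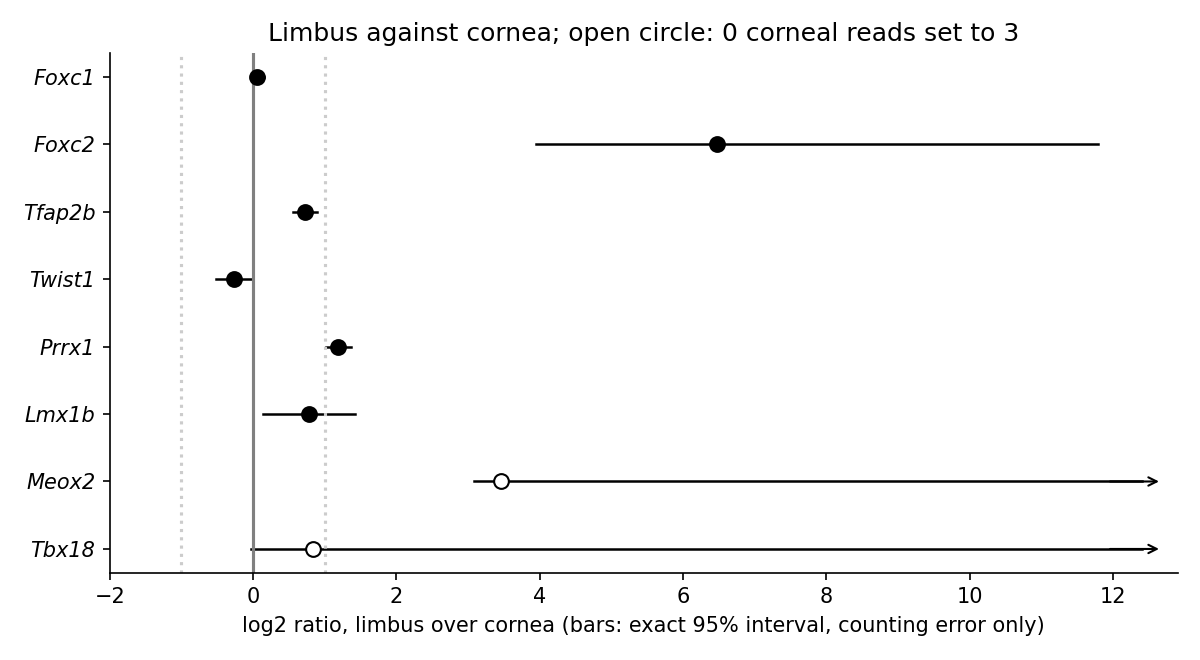
Log2 ratio of normalized reads, limbus over cornea (horizontal axis), for the 8 factors, with exact 95% intervals that cover counting error only and dotted lines at 2-fold. Foxc2 (6.47) and Meox2 (3.46 with 3 corneal reads taken) lie far to the right, Prrx1 (1.19) just past 2-fold, and Foxc1 (0.059) at 0. The intervals of Meox2 and Tbx18 have no upper end because the cornea had 0 reads.

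Set against each other within a library, the family shares differed for the 4 families with enough reads. The shares of Foxc2 and Tfap2b in their families were higher in the limbus and those of Twist1 and Prrx1 lower, in each case with intervals that did not overlap. These shares need no scaling between libraries. They compare genes of different length, so their size is not a ratio of molecules. In reads, Foxc1 stayed ahead of Foxc2, Twist1 of Twist2 and Prrx1 of Prrx2 in both libraries. Per length, with reads scaled to merged exons and to the library (RPKM), the point values of the Prrx pair changed order. Prrx1 stood at 1.32 and Prrx2 at 0.723 in the cornea, against 3.48 and 4.04 in the limbus. With its longest transcript as length, Prrx1 stood at 5.89 in the limbus, so the limbal order may depend on the length chosen.

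**Figure D3:**
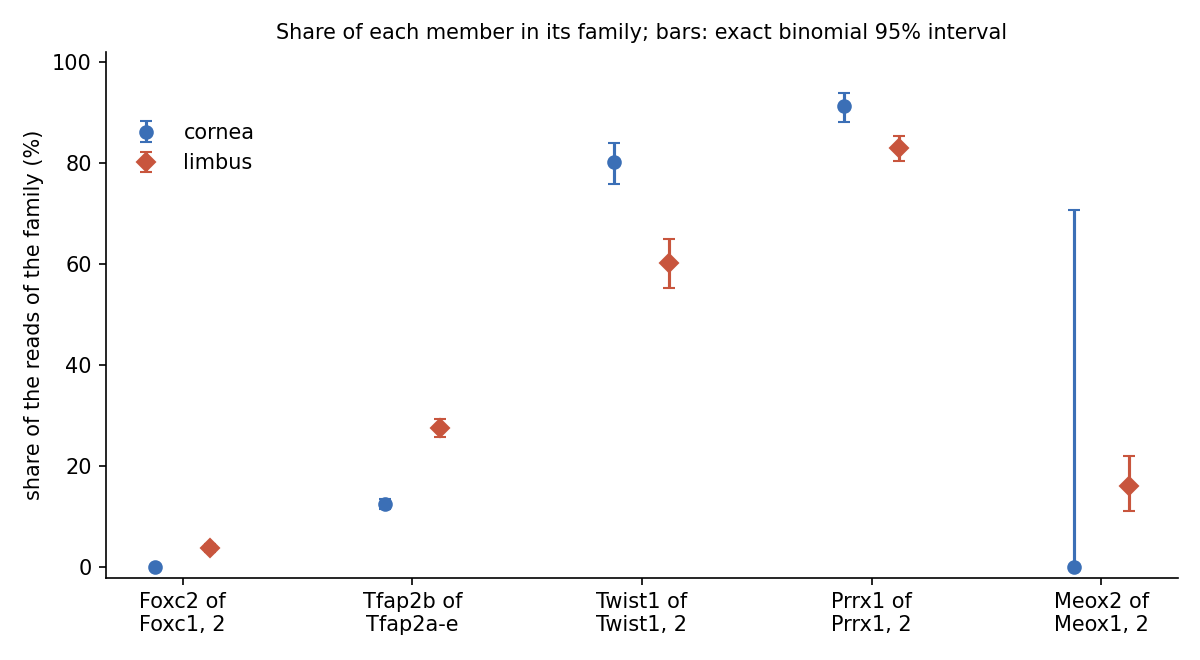
Share of the reads of a gene family (vertical axis, percent) taken by Foxc2, Tfap2b, Twist1, Prrx1 and Meox2 in the cornea (blue circles) and the limbus (red diamonds), with exact binomial 95% intervals. Foxc2 goes from 0.0462% to 3.79% and Tfap2b from 12.5% to 27.6%, while Twist1 and Prrx1 are lower in the limbus. The corneal interval of Meox2 is wide because the family had 3 reads there.

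Levels were compared between the genes per length, as RPKM (reads scaled to the length of the merged exons and to the reads on named genes in the library). RPKM thus carries the scaling to total reads, which moves log2 ratios by 0.21 towards the limbus relative to the main scaling. In the cornea Foxc1 led with a level of 14.2 (exact Poisson interval 13.6 to 14.8). Twist1 followed with 7.39, Tfap2b with 2.82, Prrx1 with 1.32 and Lmx1b with 0.275. Twist1 thus outranked Tfap2b and Prrx1 per length although it had fewer reads, its merged exons being 1.63 kb long against 6.34 and 11.1 kb. Foxc2 stood at 0.0141 in the cornea, and neither it and Meox2 nor Meox2 and Tbx18, both at 0 reads, were separated by their intervals. With 0 corneal reads, the exact intervals reach up to 0.0599 for Meox2 and 0.02995 for Tbx18.

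In the limbus the order began in the same way, with Foxc1 at 17.0 (16.3 to 17.8), Twist1 at 7.05, Tfap2b at 5.36 and Prrx1 at 3.48. Foxc2 came next at 1.44 (1.15 to 1.78), ahead of Meox2 at 0.620 (0.421 to 0.880) and Lmx1b at 0.542 (0.409 to 0.704), whose intervals overlapped. Tbx18 was last at 0.05003. Foxc2 and Meox2 were thus below Lmx1b in the corneal order, and in the limbal order Foxc2 was above it. The order of Tfap2b and Prrx1 depends on the length chosen, because with the longest transcript in place of merged exons they stood at 5.80 and 5.89 in the limbus. Across 13074 genes of known length whose mean reached 10, the median level was 4.16 in the cornea and 4.55 in the limbus. Foxc1 lay above 78.3% and 80.6% of these genes in the cornea and limbus, Twist1 above 64.1% and 61.1%, and Foxc2 above 1.88% and 25.7%.

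**Figure D4:**
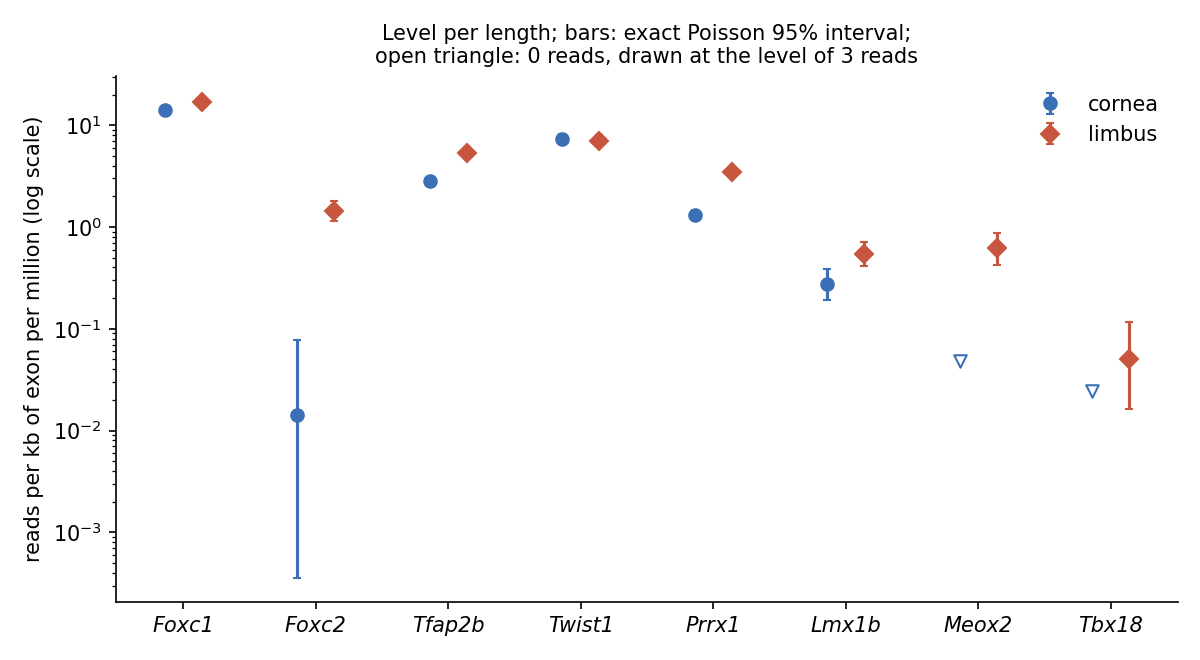
Level per length of the 8 factors (vertical axis, RPKM, log scale) in the cornea (blue circles) and the limbus (red diamonds), with exact Poisson 95% intervals. Foxc1 is highest in both libraries at 14.2 and 17.0, and open triangles mark the level of 3 reads for Meox2 and Tbx18, which had 0 reads in the cornea.

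Read against Foxc1, the member with the most reads, the mixture of factors shifted. For every 100 reads of Foxc1 there were 21.5 (19.4 to 23.8) of Tfap2b in the cornea and 34.1 (31.3 to 37.2) in the limbus. Prrx1 went from 17.7 (15.8 to 19.7) to 38.6 (35.6 to 41.9) and passed Tfap2b in reads. Twist1 went the other way, from 14.5 (12.8 to 16.3) to 11.5 (10.05 to 13.2), and these intervals overlap. Lmx1b had 1.62 (1.12 to 2.26) and 2.66 (1.999 to 3.46), which overlap as well.

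**Figure D5:**
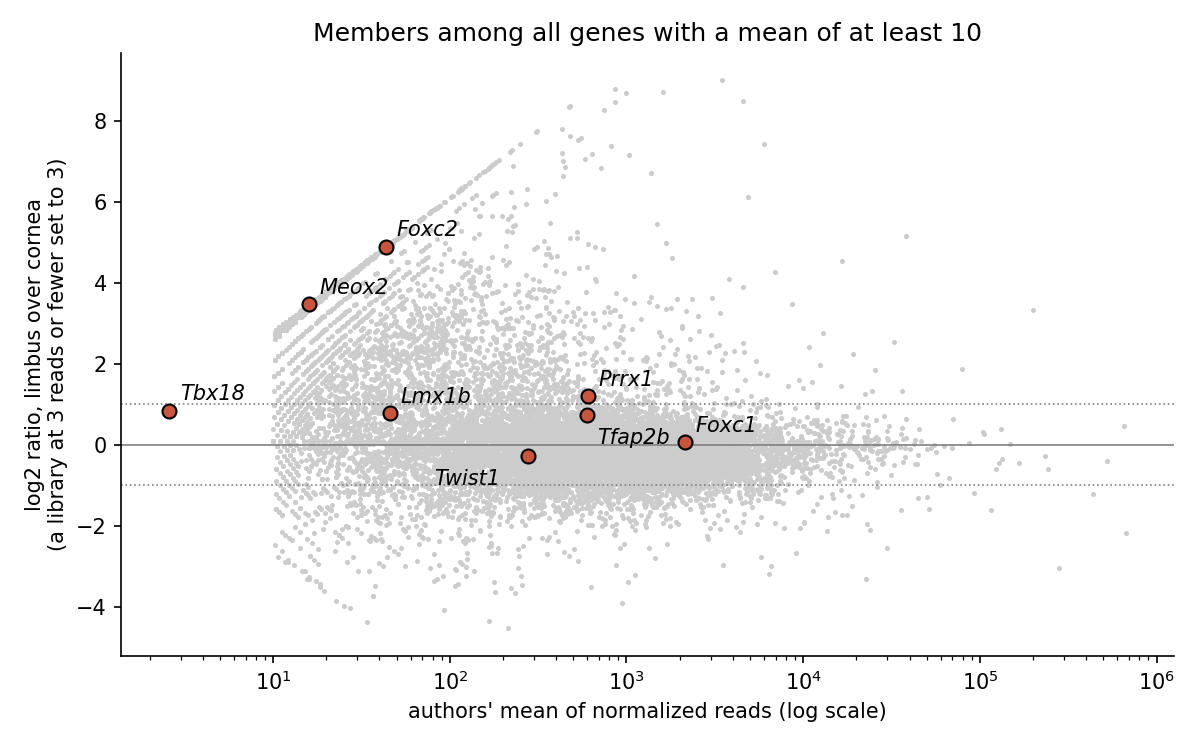
Log2 ratio of limbus over cornea (vertical axis) against the authors' mean of normalized reads (horizontal axis, log scale) for 13932 genes whose mean reached 10 (grey) and the 8 factors (red), with dotted lines at 2-fold. Foxc2 and Meox2 lie on the upper edge, where the corneal library was taken as 3 reads, and Tbx18 lies left of the grey genes because its mean is below 10.

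Most further transcription factors of the periocular mesenchyme and neural crest lay above 0 in their log2 ratios. Of 37 such genes, 4 were listed at 0 (Alx1, Dlx6, Tcf21 and Hand2) and 30 had more than 3 reads in a library. Of these 30, 19 were called for the limbus by the 2-fold rule and 1 (Dlx5) for the cornea, giving a median log2 ratio of 1.34. The rule called 17.7% and 8.75% of the 13932 genes whose mean reached 10, a limit not applied to these 30. The filter on reads keeps low genes through the tissue where they are high. Over the 24 genes whose mean over both libraries reached 10, the median was 1.68. Of the 6 with the most reads, 4 had negative log2 ratios, among them Tfap2a, and Eya2 and Osr2 had positive ones. Meis2 and Meis1, homeodomain partners of Hox proteins, had log2 ratios of -0.49 and -0.24, and the nuclear receptor Nr2f2 had -0.28. Eya2, a co-activator of sine oculis homeodomain proteins, had 1209 corneal and 2099 limbal reads and stood at 0.89. Osr2, a zinc-finger factor of craniofacial mesenchyme, had 262 and 2091 reads and was 8.53-fold higher in the limbus. Dlx5, a homeodomain factor of the facial arches, had 99 and 19 reads and was the gene called for the cornea. Dlx5 was picked out after its values were seen.

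Proteins that act together with the members had a lower median log2 ratio than the further factors. The 16 partners were the E proteins that dimerize with Twist1, the Ldb and Ssbp adaptors of LIM factors, the Kctd and Cited regulators of AP-2 factors, and further DNA-binding partners including Hand1, which was listed at 0. Of the 15 with more than 3 reads in a library, 1 (Ldb2) was called for the limbal library and 0 for the corneal one, with a median log2 ratio of -0.074 that became 0.13 when scaled to total reads. Ldb1, the adaptor that bridges LIM homeodomain factors, had 1795 and 2131 reads, its log2 ratio being 0.34. Ldb2, its relative, had 1 and 112 reads and was the one partner called for the limbus, picked out after its values were seen. Tcf12, an E protein, had 2180 and 1433 reads, its log2 ratio being -0.51. Kctd15, an inhibitor of AP-2 factors, had 1539 and 1012 reads with the same log2 ratio of -0.51, and Cited2, an AP-2 co-activator, had 1988 and 939 reads, its log2 ratio being -0.99. Ssbp3, an adaptor, had 2017 and 1661 reads. The closest paralogues had a median of 1.14 over the 7 with more than 3 reads, with 4 called for the limbus and 0 for the cornea.

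Of the 14 protein-coding neighbours with reads within 300 kb of the members, 5 were called for the limbus and 1 for the cornea. Neighbours listed at 0 were left out of this count. Over the 13932 genes whose mean reached 10, the same rule called 17.7% for the limbus and 8.75% for the cornea. No limit on the mean was applied to the neighbours, and the limbal calls of Foxl1 and Foxf2 rest on genes below it. The neighbour counts are therefore not directly comparable with those shares. Near Foxc2, the forkhead genes Foxl1 and Foxf1 had 0 corneal reads each, with 9 and 2 in the limbus, while Mthfsd, 7.78 kb away, had 631 and 589 reads. Near Foxc1, the forkhead gene Foxq1 had 1428 and 1497 reads, Foxf2 had 0 and 6, and Gmds, 7.10 kb away, had 1028 and 1745. Gorab, 71.2 kb from Prrx1, had 335 and 137 reads, opposite in direction to Prrx1. Near Meox2, Agmo had 3 and 30 reads. Near Twist1, Hdac9 had 7 and 18. Near Lmx1b, Mvb12b had 132 and 376 reads, while Ralgps1, Zbtb34 and Zbtb43 had log2 ratios of -0.81, -0.29 and -0.50.

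The pools differed in their cell types. In bulk tissue, a higher level in the limbus can come from more cells that express a gene or from more RNA per cell, and these cannot be told apart. Krt12, the keratin of corneal epithelium, had 1137735 corneal and 233324 limbal reads, while Krt15, a keratin of limbal basal cells, had 37738 and 353826. Since the direction of the table was set by keratins and keratocan, these values do not check the labels. Of the corneal epithelial markers 4 of 6 were called for the cornea, and of the limbal and conjunctival epithelial markers 7 of 7 for the limbus. Only markers with more than 3 reads in a library enter such counts, here and below. The 26104317 corneal and 21182025 limbal reads on named genes also held other tissue. Of the blood endothelial markers, 6 of 7 were called higher in the limbus, with sums of 203 corneal and 3359 limbal reads (7.78 and 159 RPM, reads scaled to the total of the library). Of the lymphatic markers, Flt4 went from 11 to 244 reads and Lyve1 from 7 to 121, Prox1 had 1 and 23, Pdpn had 2304 and 2911, and Ccl21a was listed at 0. With 3 of 4 called, the lymphatic sum, most of it Pdpn in both libraries, was 89.0 and 156 RPM. These vessel genes moved in the same direction as Foxc2 and Meox2, and their part in those ratios was not tested.

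Markers of other cell types of the rim were mostly called for the limbus too. Pericyte and smooth muscle markers were called for the limbus in 8 of 9 cases (235 and 316 RPM in sum), among them Pdgfrb with 274 and 995 reads. Notch3 had 5755 and 3349 of the 6140 and 6695 reads in this sum. Markers of scleral and conjunctival fibroblasts were called in 5 of 8 cases (976 and 1824 RPM), with Pdgfra at 475 and 325 reads and Dpp4 at 281 and 547. Gsn, not called, had 22758 and 34448 of the 25486 and 38642 reads in that sum. Markers of trabecular meshwork and ciliary body were called in 3 of 4 cases (279 and 723 RPM), and Schwann cell and melanocyte markers in 5 of 6 cases each. Of the 6 trabecular and ciliary markers listed, Opn4 had at most 2 reads and Chil1 was not found under that symbol. Aqp1, not called, had 6592 and 8177 of the 7273 and 15308 reads in the trabecular and ciliary sum. Such sums mainly follow their most abundant gene. Skeletal muscle markers had 42 reads in sum in the corneal library and 9167 in the limbal one, 7 of 7 called, whereas the muscle precursor factors Myod1 and Myog had at most 2 reads and Pax7 was listed at 0. Retina and lens markers stood at 1293 and 10603 reads, with 5 of 6 called. The part of these tissues in the ratios of Prrx1, Meox2 and Tfap2b was not tested.

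Keratocytes and corneal endothelium are the tissues that this mesenchyme forms within the cornea. Of 8 keratocyte markers 2 were called for each side, with log2 ratios from -2.99 to 3.49 around a median of 0.036. Kera and Aldh3a1 were called for the cornea, Ptgds and Col1a1 for the limbus. Aldh3a1 is also one of the corneal epithelial markers counted above, so its corneal call is not particular to keratocytes. Kera, the keratan sulfate proteoglycan keratocan, had 12119 and 1423 reads, and Lum, lumican, had 8471 and 7850. Of 7 corneal endothelial markers 3 were called for the limbus and 0 for the cornea, with a median of 0.89. Slc4a11, a transporter of the endothelium, had 843 and 1226 reads, a log2 ratio of 0.64 beside the 0.72 of Tfap2b. Whether the endothelium accounts for the level of Tfap2b was not tested.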

How the data were processed

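Stranded total RNA libraries (QIAseq) of pooled limbal rims and corneal buttons were sequenced in 75-base reads. Per the study's methods, the authors trimmed adaptors, used CLC Genomics Workbench 20 to map the reads to the GRCm38 (mm10) build, and normalized them with trimmed means of M-values. The 1 table that the authors deposited has, for each gene, the mean signal (reads divided by size factors), a log2 fold change and its standard error, p-values and adjusted p-values. The p-values were not used. The table has no column for a numbered sample, and 17484 of its 40904 rows name no gene and were left out. It does not name the tissue on top of the fold change: the direction was taken from the study's text, which places keratocan in the cornea and keratins 14, 15 and 19 in the limbus.

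Each mean is a sum of whole reads of 2 libraries, 109 corneal reads being worth 102 limbal ones. Where several pairs of read numbers gave the mean (4 members), the pair was chosen that met the deposited log2 fold change and standard error. The authors' fold changes served only for this and are not printed. All 17442 genes with reads were met within 0.001 in sum, and the members within 0.000137, where the next best pair missed by at least 0.121. On simulated data of 17062 genes every read pair was found, and all 200 genes changed 4-fold had the right direction. The read numbers are therefore derived values. They gave 26104317 corneal and 21182025 limbal reads.

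Ratios carry 95% intervals from the exact Clopper-Pearson limits of the limbal share of reads. A call needed 2-fold, an interval without 1 and more than 3 reads in a library, with 3 reads or fewer set to 3. Lengths and positions are from GENCODE M21. Overlapping gene models were found for Foxc2, Prrx1, Lmx1b, Meox2 and Tbx18, sharing exons in the case of Tbx18, and whether counting used strand is not given in the sources used here. The members and lists were chosen with earlier results of these data known. All 8 members are named, with the closest paralogues and up to 6 genes by total reads from the lists of further factors and of partner proteins. The cell type markers named do not follow the order of total reads. The values of 2 listed genes are not reported here. Neighbours were protein-coding genes of the table within 300 kb that had reads in at least 1 library. The alternatives were other scalings, a pseudocount, other limits on fold and mean, another gene length and the next best read pair. Python 3.11.15, numpy 2.4.6, scipy 1.17.1 and pandas 2.3.3 were used.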

Additional observations from a re-analysis of the deposited data

How the results depend on the processing

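Of 125 values recomputed under alternatives, 108 were counted as staying and 17 as moved, and in none of the alternatives run did a called value change sign. Ratios, medians and levels stayed if within their interval. The 108 include the count of members higher in the limbus at 4 (total reads) and 2 (4-fold), against 3 in the main analysis. Intervals without an upper end, as for Meox2, Tbx18 and the median over the members, hold any upward shift. Scaling to total reads shifted all log2 ratios by 0.21 and gave 0.26 for Foxc1, 0.93 for Tfap2b, 1.39 for Prrx1 and a median of 0.13 for the partner proteins, with 4 members called for the limbus by the 2-fold rule, and by interval alone 7 members then exceeded the cornea and 0 fell below it. A trimmed mean of M-values shifted them by 0.017. The next best read pair, which missed the deposited values, would give -0.084 for Foxc1, 5.33 for Tfap2b, -3.67 for Twist1 and 2.73 for Prrx1. By interval alone 5 members exceeded the cornea and 1 fell below it, and with a mean of at least 50 required 1 (Prrx1) was left in the limbus, since Foxc2 and Meox2 lie below that mean. With the longest transcript as length, levels were 5.80 for Tfap2b in the limbus, and 2.24 and 5.89 for Prrx1 in the cornea and limbus. No paired analysis was possible because the table holds no value per numbered sample, and leaving out replicates was not run for the same reason. Depth limits Tbx18, Meox2, Foxc2 and Lmx1b most.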
